A study of Mus musculus with 8 samples.

Results

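The pentose phosphate pathway enzymes are 7 genes of the 22520 genes and assembled transcripts in the deposited table, and are picked out by their symbols, as a pathway chosen with earlier results of these data known: *G6pdx*, *Pgls* and *Pgd* of the oxidative branch, and *Rpia*, *Rpe*, *Tkt* and *Taldo1* of the non-oxidative branch. They were measured by bulk RNA-seq in 8 libraries of mouse splenic CD8+ T cells. The cells were kept under anti-CD3/CD28 stimulation with IL-2 until day 6, a culture that models T cell exhaustion. All 8 cultures had this stimulation, and from day 3 they received either 40 µM DADA (diisopropylamine dichloroacetate, an inhibitor of pyruvate dehydrogenase kinase) or the same volume of the solvent DMSO, with 4 libraries per group. The genotype field of the labels reads "control" for the DMSO group and "model" for the DADA group, although no genetic change is described, and the labels give neither strain nor age. The study describes this culture with cells of wild-type mice. Its methods list male C57BL/6J mice aged 6 to 8 weeks, without naming the strain for the RNA-seq. The replicates are called biological, but whether they came from separate mice is not stated, so the p-values measure the spread between these cultures.

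The pentose phosphate pathway branches off glycolysis at glucose 6-phosphate. Its oxidative branch yields NADPH, the reducing agent used for glutathione recycling, lipid synthesis and the NADPH oxidase, and ends in ribulose 5-phosphate. The reversible non-oxidative branch turns ribulose 5-phosphate into ribose 5-phosphate, the sugar of nucleotides, and exchanges carbon with fructose 6-phosphate and glyceraldehyde 3-phosphate of glycolysis. Activated T cells are known to use the pathway while they divide.

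The enzymes of the pathway did not move together in DADA-treated CD8+ T cells. *G6pdx* and *Rpia* fell by 39.3% and 40.2% in mean FPKM (fragments scaled to transcript length and library size), *Pgls* fell by 22.1% and *Rpe* fell by 13.9%. *Pgd* rose by 24.4%. *Tkt* and *Taldo1*, the most abundant of the 7, fell short of the threshold, with a mean change of -4.25% and -2.88%. All 7 genes reached 1 FPKM in at least 4 libraries and entered the test. This was limma on log2(FPKM + 1) over 10666 genes and assembled transcripts, with a call at a Benjamini-Hochberg adjusted p-value under 0.05. Of the 7, 1 was called higher and 4 lower with DADA. Over all genes tested, 66.2% were called, 30.9% higher and 35.3% lower, so 5 calls among 7 genes are close to the share over all genes. The groups did not overlap for 5 of the 7, against 60.6% of all genes tested. The median log2 fold change was -0.21 over the 7 enzymes and -0.02 over all genes tested. All fold changes below are on the log2(FPKM + 1) scale, as DADA minus DMSO.

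**Figure D1:**
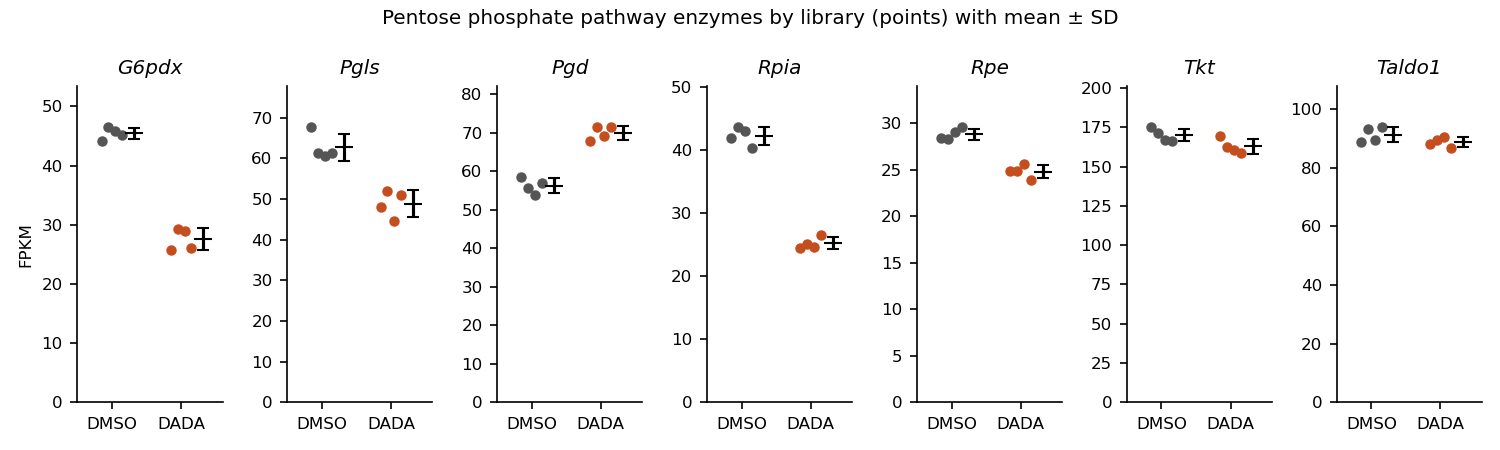
FPKM of the 7 enzymes in each library (points: 4 DMSO in grey, 4 DADA in orange) with the group mean ± SD beside them, each panel on its own linear axis from 0. The groups are apart for *G6pdx*, *Pgls*, *Pgd*, *Rpia* and *Rpe*, with *Pgd* the only one of these higher with DADA, and they overlap for *Tkt* and *Taldo1*.

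*G6pdx* (ENSMUSG00000031400) encodes glucose-6-phosphate dehydrogenase, the enzyme of the committed and NADPH-yielding first step. It was at 44.2, 46.5, 45.9 and 45.2 FPKM in DMSO libraries 1 to 4 and at 25.8, 29.3, 29.0 and 26.2 FPKM in DADA libraries 1 to 4. The lowest DMSO library was far above the highest DADA library. The group means were 45.4 ± 0.969 with DMSO and 27.6 ± 1.85 with DADA (FPKM, SD, n = 4 each). On the log2 scale this was -0.70 (standard error 0.0439, 95% interval -0.80 to -0.60, limma, adjusted p = 3.36e-07). Of all genes tested, 1.69% had a lower log2 fold change. *G6pdx* overlaps *Ikbkg* on the opposite strand, and whether fragments were assigned by strand is not stated. The DMSO libraries held *Ikbkg* at 12.3 to 12.9 FPKM and the DADA libraries at 11.5 to 14.1 FPKM (limma, adjusted p = 0.951). The copy *G6pd2*, whose transcript is 93.2% identical over 2332 bases, reached at most 0.0301 FPKM.

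*Pgls* (ENSMUSG00000031807) encodes 6-phosphogluconolactonase, which opens the lactone made by G6PDX. DMSO libraries 1 to 4 held 67.7, 61.4, 60.6 and 61.3 FPKM and DADA libraries 1 to 4 held 47.9, 52.0, 44.6 and 50.9 FPKM. DMSO 1 lay above the other DMSO libraries, and every DADA library lay below every DMSO library. The log2 fold change was -0.36 (standard error 0.0516, 95% interval -0.47 to -0.24, limma, adjusted p = 1.60e-04). Without DMSO 1 it was -0.32 (limma, adjusted p = 4.07e-04), and leaving out any single library gave between -0.39 and -0.31. On the same strand *Pgls* overlaps *Niban3*, which was between 0.713 and 1.66 FPKM in the 8 libraries.

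*Pgd* (ENSMUSG00000028961) encodes 6-phosphogluconate dehydrogenase, the second NADPH-yielding enzyme of the branch, which releases ribulose 5-phosphate. It was at 58.5, 55.6, 53.8 and 57.0 FPKM in DMSO libraries 1 to 4 and at 67.8, 71.4, 69.2 and 71.4 FPKM in DADA libraries 1 to 4. Here the order of the groups was the opposite of that for *G6pdx*, again without overlap. The group means were 56.2 ± 1.98 with DMSO and 69.96 ± 1.76 with DADA (FPKM, SD, n = 4 each), a rise of 0.31 in log2 (standard error 0.0306, 95% interval 0.24 to 0.38, limma, adjusted p = 9.79e-06). Of all genes tested, 82.7% had a lower log2 fold change.

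The first and the third enzyme of the oxidative branch were also set against each other within each library, a ratio that does not depend on how a library was scaled. The FPKM ratio of *G6pdx* to *Pgd* was 0.756, 0.835, 0.852 and 0.793 in DMSO libraries 1 to 4 and 0.380, 0.410, 0.420 and 0.367 in DADA libraries 1 to 4. *Pgd* was thus the higher of the 2 dehydrogenases in each of the 8 libraries, and more so with DADA. The difference of the log2 ratio was -1.04. It is given as a description, with no test, because 2 genes that separate the groups in opposite directions have a ratio that must separate them too.

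**Figure D2:**
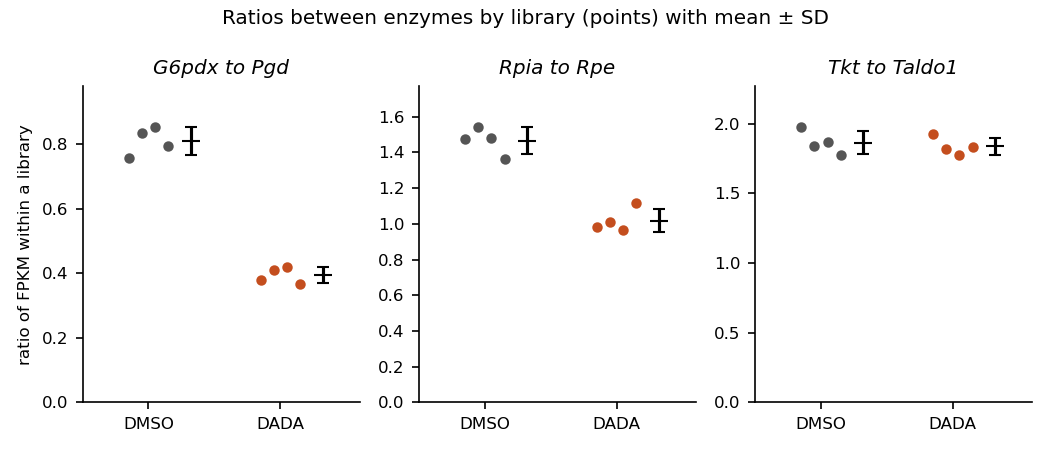
FPKM ratio within each library (points: 4 DMSO in grey, 4 DADA in orange) with the group mean ± SD, for *G6pdx* to *Pgd*, *Rpia* to *Rpe* and *Tkt* to *Taldo1*, on linear axes from 0. In the first 2 panels all orange points lie below all grey points, and in the third they overlap.

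In the non-oxidative branch, ribose-5-phosphate isomerase and ribulose-5-phosphate epimerase draw on the same substrate, ribulose 5-phosphate. *Rpia* (ENSMUSG00000053604), which encodes the isomerase that makes ribose 5-phosphate, was at 41.9, 43.6, 43.1 and 40.3 FPKM in DMSO libraries 1 to 4 and at 24.5, 25.1, 24.7 and 26.6 FPKM in DADA libraries 1 to 4. The groups were wide apart, and the spread within each was small, with a coefficient of variation of 3.46% in the DMSO and 3.75% in the DADA group. At -0.72 the log2 fold change of *Rpia* was the largest of the 7 in size (standard error 0.0351, 95% interval -0.80 to -0.64, limma, adjusted p = 5.51e-08). Of all genes tested, 1.48% had a lower log2 fold change.

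*Rpe* (ENSMUSG00000026005), which encodes the epimerase that makes xylulose 5-phosphate, had the lowest group mean of the 7 with DMSO and with DADA, although DADA libraries 1 and 3 held more of it than of *Rpia*. It was at 28.4, 28.3, 29.0 and 29.6 FPKM in DMSO libraries 1 to 4 and at 24.9, 24.9, 25.6 and 23.9 FPKM in DADA libraries 1 to 4. The difference was small but larger than the spread, and the groups did not overlap. The log2 fold change was -0.21 (standard error 0.0295, 95% interval -0.27 to -0.14, limma, adjusted p = 1.30e-04). *Rpe* overlaps *Kansl1l* on the opposite strand by 558 bases of transcript, and *Kansl1l* stayed between 1.01 and 1.91 FPKM in the 8 libraries and rose with DADA.

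The ratio of *Rpia* to *Rpe* was 1.48, 1.54, 1.48 and 1.36 in DMSO libraries 1 to 4 and 0.984, 1.01, 0.965 and 1.11 in DADA libraries 1 to 4. With DMSO the isomerase transcript was the higher in each library, and with DADA the pair stood near equal levels. The difference of the log2 ratio was -0.53 (two-sided exact permutation test over 70 assignments, p = 0.0286, the smallest that 4 against 4 libraries can give). Adjusted over this ratio and that of *Tkt* to *Taldo1*, the exact p was 0.0571, which misses the threshold. It could have gone lower only if the other ratio had also reached the smallest p, so the miss says little about this ratio. Adjusted over 3 ratios, as first planned, the exact p was 0.0429. That plan counted *G6pdx* to *Pgd*, whose separation follows from its members.

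*Tkt* (ENSMUSG00000021957) encodes transketolase, the thiamine-dependent enzyme that moves units of 2 carbons between sugar phosphates. It was the most abundant of the 7 in every library, at 175, 171, 167 and 167 FPKM in DMSO libraries 1 to 4 and at 169, 162, 161 and 158 FPKM in DADA libraries 1 to 4. DADA 1 lay within the DMSO range, and the other DADA libraries lay below it. The log2 fold change was -0.06 (standard error 0.0267, 95% interval -0.12 to -0.0027, limma, adjusted p = 0.0621). Without DADA 1 it was -0.08 and past the threshold (limma, adjusted p = 0.0210).

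*Taldo1* (ENSMUSG00000025503) encodes transaldolase, which works beside transketolase in the return to glycolytic intermediates. It was at 88.6, 93.0, 89.5 and 93.7 FPKM in DMSO libraries 1 to 4 and at 87.9, 89.3, 90.5 and 86.6 FPKM in DADA libraries 1 to 4. The groups overlapped, and the log2 fold change of -0.04 was within the spread (standard error 0.0259, 95% interval -0.10 to 0.02, limma, adjusted p = 0.183). A processed pseudogene, Gm17823, matches the *Taldo1* transcript at 94.7% over 923 bases, so the assignment of *Taldo1* fragments is less certain. The ratio of *Tkt* to *Taldo1* was between 1.78 and 1.98 with DMSO and between 1.78 and 1.93 with DADA, a log2 difference of -0.02 (two-sided exact permutation test, p = 0.571, adjusted p = 0.571 over 2 ratios).

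**Figure D3:**
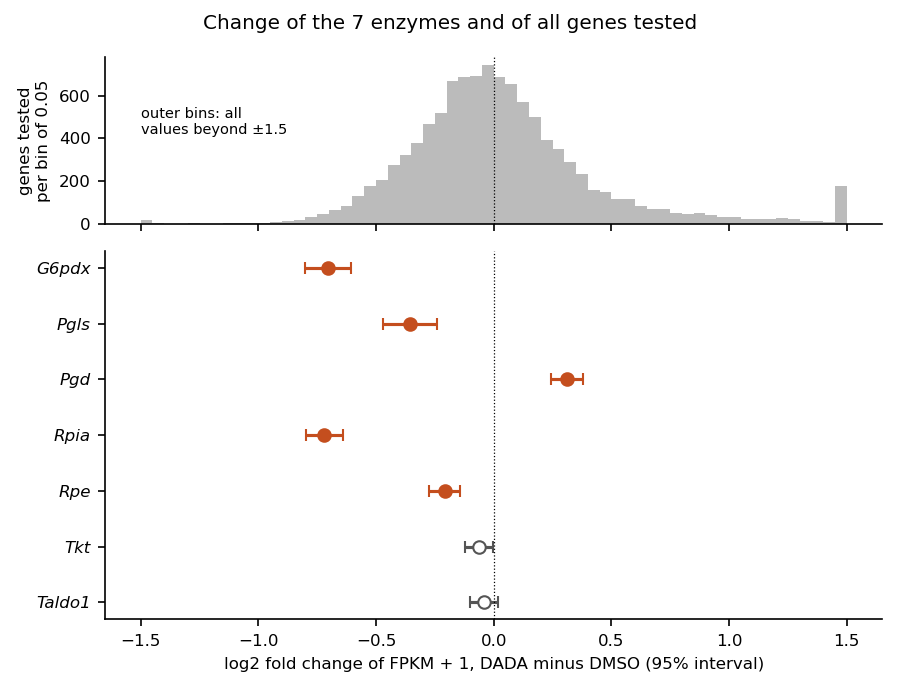
Upper panel, histogram of the log2 fold change (DADA minus DMSO) of the 10666 genes tested. Lower panel, the 7 enzymes with their 95% intervals from limma, filled orange where the adjusted p-value is under 0.05 and open grey where it is not; *G6pdx* at -0.70 and *Rpia* at -0.72 lie in the lower tail, *Pgd* lies at 0.31, and *Tkt* and *Taldo1* lie near 0.

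Since FPKM is a level per transcript length, the 7 transcripts could also be compared with each other. With DMSO their order was *Tkt*, *Taldo1*, *Pgls*, *Pgd*, *G6pdx*, *Rpia* and *Rpe*, and no neighbours in this order overlapped over the 4 libraries. With DADA *Pgd* stood above *Pgls*, and the 3 lowest, *G6pdx*, *Rpia* and *Rpe*, came together, since *Rpia* overlapped both *G6pdx* and *Rpe* in range. *Tkt* made up 34.2% ± 0.398 (SD, n = 4) of the summed FPKM of the 7 genes with DMSO and 36.3% ± 0.978 (SD, n = 4) with DADA. The share of *Pgd* went from 11.3% ± 0.296 to 15.6% ± 0.391, whereas that of *G6pdx* went from 9.15% ± 0.272 to 6.16% ± 0.390 and that of *Rpia* from 8.50% ± 0.312 to 5.64% ± 0.240.

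The summed FPKM of the 7 transcripts lay between 489 and 504 with DMSO and between 444 and 454 with DADA. By branch, the oxidative transcripts summed to 164 ± 4.23 FPKM in DMSO and 146 ± 5.18 FPKM in DADA libraries (SD, n = 4 each). The non-oxidative ones summed to 332 ± 3.45 FPKM and 301 ± 4.57 FPKM. The oxidative branch held 33.1% ± 0.489 of the sum with DMSO and 32.7% ± 0.990 with DADA. The ranges of this share overlapped between the groups. These sums are given as a description, with no test. In bulk RNA, fewer cells with a transcript and less of it per cell cannot be told apart.

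The sequences upstream of 3 of the genes are shown because *G6pdx* and *Rpia* had the largest falls and *Pgd* the only rise. They are the 250 bases before the RefSeq start in build GRCm38.p6, on the strand of the gene, at chrX:74428881-74429130 for *G6pdx* (minus strand), chr6:70792176-70792425 for *Rpia* (minus strand) and chr4:149166706-149166955 for *Pgd* (minus strand, the farther upstream of its 2 listed starts). Capitals mark the letters GGGCGG (a GC box) on either strand and, in *G6pdx*, the letters TGACNNNGC (the core of the antioxidant response element bound by NRF2). In *G6pdx* the latter lie on the other strand, so they are printed as the reverse complement, GCNNNGTCA.
G6pdx: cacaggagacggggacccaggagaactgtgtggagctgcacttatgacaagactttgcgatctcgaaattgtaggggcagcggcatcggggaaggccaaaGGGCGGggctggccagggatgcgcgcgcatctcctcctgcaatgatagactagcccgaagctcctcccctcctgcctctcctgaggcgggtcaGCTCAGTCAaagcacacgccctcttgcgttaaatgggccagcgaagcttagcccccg
Rpia: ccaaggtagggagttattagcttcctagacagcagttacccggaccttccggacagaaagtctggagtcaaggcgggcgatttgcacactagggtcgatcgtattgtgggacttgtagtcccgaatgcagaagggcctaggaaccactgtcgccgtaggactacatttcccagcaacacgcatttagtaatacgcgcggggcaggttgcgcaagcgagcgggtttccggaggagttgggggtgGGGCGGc
Pgd: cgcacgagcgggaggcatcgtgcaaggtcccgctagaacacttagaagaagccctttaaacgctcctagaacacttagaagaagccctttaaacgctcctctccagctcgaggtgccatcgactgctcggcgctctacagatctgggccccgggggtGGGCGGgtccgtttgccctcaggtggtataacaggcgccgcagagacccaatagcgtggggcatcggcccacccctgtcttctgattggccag

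A search of the same window in the 8 promoters listed for the 7 genes, on both strands, used the GC box and the antioxidant element above. It also used the E-box CACGTG and the letters ACGTG, a form of the core of the hypoxia response element, which that E-box contains. The other form of that core, GCGTG, was not searched for and does occur in printed sequences above, so the search does not cover the element as a whole. The GC box was found in 7 of 8 promoters, all but the downstream one of *Pgd*, against 58.9% of 10477 promoters of genes tested and 32.7% of all 32851 promoters in the table. TGACNNNGC was found in *G6pdx* alone, starting 57 bases before the start, against 11.9% of promoters of genes tested. The E-box was found in 0 of 8, against 8.49%, and ACGTG likewise in 0 of 8, against 22.4%. The GC box was thus present upstream of enzymes that rose, fell or were not called. These matches are letters in a window, not binding sites.

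For each enzyme, the genes with the most similar profile were found among 8085 others, by the root mean square difference of log2(FPKM + 1) over the 8 libraries after centring each gene on its mean. *Rpia* was closest to *Ranbp1*, a cofactor of nuclear transport, at 0.0246, and to *Ccna2*, cyclin A2, at 0.0291. *G6pdx* was closest to *Rrp15* (0.0415) and *Wdr18* (0.0430), both of ribosome biogenesis. *Pgd* was closest to *mt-Co3* (0.0267), a mitochondrially encoded subunit of cytochrome c oxidase, and to *Hspa13* (0.0275). The nearest genes were *Rab40c* (0.0323) and *Rpl13a* (0.0342) for *Pgls*, *Mrps9* (0.0180) and *Septin7* (0.0215) for *Rpe*, *Prrc2a* (0.0172) and *Rab5c* (0.0177) for *Tkt*, and *Pi4k2a* (0.0160) and *E2f3* (0.0175) for *Taldo1*. The 14 names differ from enzyme to enzyme, and the 8 libraries of 2 groups leave little to tell profiles apart other than the size of the group difference.

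Genes around the pathway were read from lists of 91 genes, of which 77 passed the filter, with 21 called higher and 43 lower. This is 83.1% called, against 66.2% of all genes tested (30.9% higher and 35.3% lower), and the lists below are to be read against those shares. Of the genes that use ribose 5-phosphate, from phosphoribosyl pyrophosphate (PRPP) to purines and pyrimidines, 23 of 24 passed, and 18 were called lower and 3 higher, with a median log2 fold change of -0.44. *Prps1*, a PRPP synthetase fed by RPIA's product, had a mean of 73.4 ± 0.949 FPKM in DMSO and 41.0 ± 0.991 FPKM in DADA libraries (SD, n = 4 each). It fell by 0.82 on the log2 scale (limma, adjusted p = 1.41e-09). The similar gene *Prps1l3* was at 29.0 and 26.1 FPKM, so fragments of the 2 may be split. *Prps2*, another PRPP synthetase, fell less, by 0.36 on the log2 scale (limma, adjusted p = 3.56e-05). It was named after its values were seen. *Gart*, of purine synthesis, fell by 1.09 on the log2 scale, and *Adss1* (0.66) and *Impdh1* (0.42) rose.

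Of the glycolytic genes that share intermediates with the pathway, 11 of 15 passed, 8 higher and 3 lower. All 11 were called, against 66.2% of all genes (30.9% higher and 35.3% lower), and the median was 1.00. The hexokinases *Hk1* (-1.10) and *Hk2* (-1.08), which make glucose 6-phosphate, fell with *G6pdx*, whereas *Aldoc* (2.76) and *Tpi1* (1.30), of lower glycolysis, rose. The rises were not confined to lower glycolysis. *Gpi1* (1.00), *Pfkl* (1.22), *Pfkp* (1.00), *Pfkm* (0.27) and *Pfkfb3* (1.09), of the steps after the hexokinases, were also called higher. These genes were named after their values were seen. The third gene to fall was *Tigar*, which lowers fructose 2,6-bisphosphate and so favours the pentose phosphate pathway, at 7.52 ± 0.299 and 6.30 ± 0.216 FPKM. It was named after its values were seen.

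Among other NADPH-producing enzymes, 11 of 13 passed, 3 higher and 6 lower (81.8% called, against 66.2% of all genes), with a median of -0.29. *Mthfd1* (-0.78) and *Aldh1l2* (-0.60), of folate metabolism, fell, and *Idh1* rose from 3.23 ± 0.435 to 4.83 ± 0.662 FPKM. *Me1*, cytosolic malic enzyme, lay between 0.103 and 0.166 FPKM with DMSO and between 1.59 and 1.86 FPKM with DADA, and it passed the filter only through the DADA libraries. Its log2 fold change was 1.28 with a pseudocount of 1 and 3.02 with 0.1.

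Of NRF2 and its target genes, a set to which *G6pdx*, *Pgd*, *Tkt* and *Taldo1* are also assigned in the literature, 12 of 12 passed, 3 higher and 7 lower (83.3% called, against 66.2% of all genes), with a median of -0.22. *Nqo1* (-0.89) and *Srxn1* (-0.69) fell, and *Keap1* (0.56), the inhibitor of NRF2, and *Hmox1* (0.54) rose. *Nfe2l2*, which encodes NRF2 and was named after its values were seen, was at 22.3 ± 1.23 and 23.7 ± 0.344 FPKM (limma, adjusted p = 0.0842). Of the NADPH-using enzymes, 11 of 12 passed, with 2 higher (*Blvrb*, 0.29, and *Cyba*, 0.18), 4 lower and a median of -0.04. This is 54.5% called, below the 66.2% of all genes. *Blvrb* overlapped between the groups, and under quantile normalization its log2 fold change was 0.17 and its call was lost (limma, adjusted p = 0.127). Among those that fell was *Txnrd1* (-0.65), also in the NRF2 list.

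Of the side and paralog genes, 7 of 12 passed the filter, 2 higher and 5 lower (all 7 called, against 66.2% of all genes), with a median of -0.15. *Rbks*, ribokinase, rose by 0.54, and *Pgm2*, a phosphopentomutase, fell by 0.32 on the log2 scale. *Shpk* (-0.27), sedoheptulokinase, and *Fggy* (0.16) overlapped between the groups, and both lost their calls when certain single libraries were left out, *Shpk* in 6 of 8 such fits and *Fggy* in 7 of 8. *G6pd2*, *Tktl1*, *Tktl2*, *Rgn* and *Xylb* stayed below the filter, as did, among others, *Prps1l1*, *Me3*, *Aldh1l1*, *Hk3*, *Fbp1*, *Fbp2*, *Slc19a3* and *Cybb* in the other lists. For thiamine, the cofactor of transketolase, 4 of 5 genes passed with a median of 0.02. The transporter *Slc19a2* alone was called, at -0.28 (25% called, against 66.2% of all genes).

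**Figure D4:**
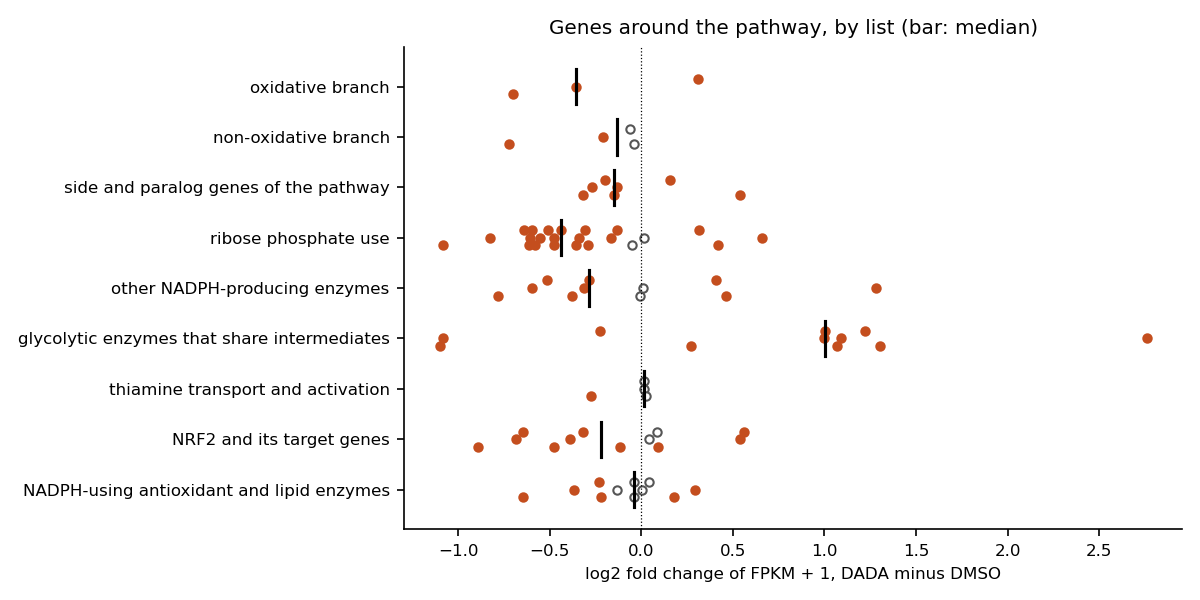
Log2 fold change (DADA minus DMSO) of each gene that passed the filter, in 1 row per list, filled orange where the adjusted p-value is under 0.05 and open grey where it is not, with the median as a bar. The ribose phosphate row centres on -0.44 and the glycolytic row on 1.00, the oxidative row runs from -0.70 to 0.31, and all 4 genes of the non-oxidative row lie below 0, from -0.72 to -0.04.

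The libraries held the transcripts of CD8+ T cells. The 8 markers of the CD8 T cell list summed to between 1293 and 1332 FPKM with DMSO and between 1607 and 1652 FPKM with DADA. All 8 were called higher, against 30.9% of all genes tested. Only *Cd8a* and *Cd8b1* of this list set CD8+ apart from other T cells. *Cd8a* was between 124 and 129 FPKM with DMSO and between 149 and 162 FPKM with DADA. Of 6 B cell markers, *Pax5* was listed at 0 in every library and the sum was at most 4.40 FPKM, with 1 marker passing the filter and 0 called. *Ebf1*, which did not pass the filter and was named after its values were seen, was between 0.183 and 0.313 FPKM in DMSO libraries and between 0.866 and 1.42 FPKM in DADA libraries, without overlap. The 10 myeloid markers summed to between 3.67 and 4.40 FPKM with DMSO and between 5.21 and 5.88 FPKM with DADA, with *Csf1r* and *Adgre1* among 5 listed at 0. Most of these sums was *Cd68*, the only myeloid marker to pass the filter, which was called higher and was named after its values were seen. It was between 3.43 and 3.90 FPKM with DMSO and between 5.09 and 5.54 FPKM with DADA. The 6 erythroid markers summed to at most 0.426 FPKM. *Cd4* was at most 0.411 FPKM and *Ncr1* at most 0.136 FPKM. *Zbtb7b* made up most of the CD4 list (15.3 to 17.4 FPKM). *Klrk1*, which activated CD8+ T cells also express, made up most of the NK list (115 to 130 FPKM). Of the CD4 list, 1 of 4 passed the filter and was called lower. Of the NK list, 2 of 4 passed, and both were called lower. Over all genes tested, 35.3% were called lower. Below the filter, *Foxp3* was between 0.0426 and 0.103 FPKM with DMSO and between 0.187 and 0.268 FPKM with DADA. *Klrb1c* went from at most 0.0484 to at least 0.144 FPKM, whereas *Cd40lg* went from at least 0.1552 to at most 0.1551 FPKM. They were named after their values were seen. The part of these markers in the results above was not tested.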

How the data were processed

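Mouse splenic CD8+ T cells were profiled by paired-end bulk RNA-seq. The deposited unit is FPKM, computed by the authors for each gene in each library. The submitters' processing notes name HISAT2 2.0.5, StringTie 1.3.3, SAMtools 0.1.18, Picard 1.41, FastQC 0.11.9 and CASAVA 1.8.2 and the builds GRCm39 and GRCh38, without roles. The labels and the study's methods name different library kits, and strand use is not given in the sources used here. The FPKM values hold no counts. Many depths were tried for each library, and the one that put most low values near whole fragments was kept. At that depth, low values of 4431 genes with a single transcript lay near whole fragments (within 0.1) in 37.5% to 42.2% of cases. Chance gives 20% at a single depth fixed in advance, and more at the best of many. The study states a minimum data volume per sample, but no depth for each library. The depth is therefore unknown beyond that minimum, and no count test was run. No library pair was identical.

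Values were analysed as log2(FPKM + 1) for genes at 1 FPKM or more in at least 4 of 8 libraries, with limma 3.58.1 in R 4.3.3 (eBayes with trend, Benjamini-Hochberg over all genes tested). The fit was tested on simulated data. The enzymes, lists and tests were chosen with earlier results of these data known. Named from each list were the 2 largest called rises and falls and, without values, the genes below the filter; for each enzyme, the 2 genes of most similar profile with a mean of at least 5 FPKM. A few genes that these rules select are not reported here. Older symbols in the lists were matched by gene identifier. Ratios were tested with two-sided exact permutation tests, except that of *G6pdx* to *Pgd*, whose separation follows from its members. The p-values were adjusted over the other 2, although the plan was to test and adjust over all 3. Alternatives were a pseudocount of 0.1, other filters and scalings, no trend, the replicate number as a block and each library left out. Promoter sequences came from RefSeq (GRCm38.p6), with an entry for 7 of 7 enzymes, and overlapping and similar transcripts from GENCODE M21, by blastn with at least 90% identity over 150 bases. No coordinates of different builds were mixed.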

Additional observations from a re-analysis of the deposited data

Results flagged for a closer look

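In 5 of 72 groups of 4 libraries tested, 1 library lay far from the other 3. The measure was its distance to the nearest library as a share of the group's whole range, set against Dixon's 95% critical value. By chance about 1 group in 20 would pass, or 3.6 of these, and groups of correlated genes pass together. Of the 7 enzymes, only *Pgls* was among them: DMSO 1 was at 67.7 FPKM and the other DMSO libraries were between 60.6 and 61.4 FPKM (ratio 0.887). The other 4 were groups of genes of the surrounding lists. *Fggy* was at 5.16 FPKM in DADA 1 and 4.80 to 4.83 FPKM in the other DADA libraries (ratio 0.921). *Mthfd1* was at 58.7 FPKM in DMSO 4 and 62.05 to 62.31 FPKM in the other DMSO libraries (ratio 0.929), and it was at 36.0 FPKM in DADA 4 and 34.9 FPKM in the other DADA libraries (ratio 0.982). *Aldoc* was at 19.2 FPKM in DADA 2 and 20.3 to 20.4 FPKM in the other DADA libraries (ratio 0.8635).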

How the results depend on the processing

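Under every alternative run, *G6pdx*, *Pgls*, *Rpia* and *Rpe* were called lower and *Pgd* was called higher. The number of enzymes called lower was 4 or 5 and the number called higher was 1. Leaving out single libraries gave log2 fold changes from -0.73 to -0.67 for *G6pdx*, -0.39 to -0.31 for *Pgls*, 0.29 to 0.33 for *Pgd*, -0.75 to -0.71 for *Rpia*, -0.22 to -0.19 for *Rpe*, -0.0815 to -0.0485 for *Tkt* and -0.06 to -0.03 for *Taldo1*. *Tkt* was called without DADA 1 and with the replicate number as a block (-0.0624, limma, adjusted p = 0.0271), and its adjusted p ranged from 0.0210 to 0.330 over all alternatives. *Taldo1* changed sign to 0.0188 under quantile normalization (limma, adjusted p = 0.553). The log2 difference of the *Tkt* to *Taldo1* ratio ranged from -0.0437 to 0.00708 with 1 library left out, the positive value being the one without DMSO 1. The cause of these changes was not tested. The ratios of *G6pdx* to *Pgd* (-1.07 to -1.0038) and *Rpia* to *Rpe* (-0.57 to -0.50) kept their direction with 1 library left out, where the exact p of the second cannot go below 0.0571. Libraries with the same number did not consistently deviate together over genes (correlations of deviations from the group means 0.0953, -0.120, -0.0877 and 0.0751 for numbers 1 to 4). Nor did each library correlate best with its own number (DMSO 1 did so with DADA 3, 0.114). Whether cultures of the same number shared a mouse or a day is not stated, and these correlations cannot settle it. The block called 5 enzymes lower, *Tkt* being the added one, and changed no other enzyme's call. Over all genes, 3560 to 3636 were called lower and 2908 to 3198 higher with 1 library left out, against 3768 and 3296 with all 8. Which direction held more calls depended on scaling and filter: 3379 were lower and 3607 higher as TPM, 3861 and 4007 without a filter, and 4116 and 3005 under quantile normalization. Of the surrounding genes named, *Fggy*, *Shpk* and *Blvrb* lost their calls under at least 1 alternative in which they were tested. *Me1* did not pass the filter, and so was not tested, in any fit that left out a DADA library. Under the filter on a mean of at least 5 FPKM, *Me1*, *Idh1*, *Adss1* and *Nqo1* were among the named genes not tested. FPKM values without counts give no limit of detection for the genes listed at 0.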
